A study of Danio rerio with 16 samples.

Results

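The transcripts of 10 zebrafish (Danio rerio) skeletal muscle genes were followed in 16 Affymetrix arrays. Every probe set whose only symbol in the platform annotation was mylpfa, myhz1.3, tnni2a.4, tnnt3b, pvalb1, atp2a1, smyhc1, actc1b, tmod4 or myog was taken, whatever its values. This gave 19 probe sets among 15509 in all. Fast-fibre genes held 8 of them, the slow-fibre gene smyhc1 held 1, and the genes shared by both fibre types or switched on early held 10, of which 8 belonged to actc1b.

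Skeletal muscle of the zebrafish trunk is laid down in somites, in which slow fibres form first, from cells beside the notochord, and the bulk of the fast fibres differentiates after them. Both fibre types build sarcomeres of actin, myosin and troponin, but each uses its own myosin heavy chain, light chain and troponin genes. Myogenin, the product of myog, is a transcription factor that acts early in this programme, when myoblasts leave the cell cycle and begin to differentiate.

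The samples were total RNA of 4 kinds. Embryos labelled foggy mutants gave 6 arrays (title numbers 1 to 6) and wild-type (WT) embryos gave 4 arrays (numbers 1, 4, 5 and 6), all at the stage labelled 36 h. Embryos at 12 somites had been injected with an RNA named Foggy(DelCter) (3 arrays) or with a control RNA (3 arrays). The locus named foggy is supt5h, whose product Spt5 travels with elongating RNA polymerase II. The labels name no strain, allele, zygosity, RNA dose or clutch, and they do not explain the name DelCter, so p-values measure only the spread between these arrays, which may be technical. The source field names brain and adrenal medulla for every sample, while the description says embryonic brain at 36 h and gives injected embryos at 12 somites.

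The 36 h arrays fell into 2 sets by title number that differed in tissue markers. Summed over 14 listed genes, brain and neuron markers reached 1534 to 1988 units in the foggy arrays numbered 4 to 6, 3032 to 3806 units in the WT arrays of the same numbers, 16554 to 16809 units in the arrays labelled foggy with numbers 1 to 3, and 16526 units in WT array 1. The sum of 7 yolk layer and liver genes was 43498 to 51021 units over numbers 4 to 6 and 1214 to 1508 units over numbers 1 to 3. Of 15 trunk Hox genes, 14 were above the unused tag controls of the chip in every foggy array and 15 in every WT array of numbers 4 to 6, against 1 in every array labelled foggy and 2 in WT array 1 of numbers 1 to 3. The material of numbers 4 to 6 therefore held genes of trunk and yolk that the label embryonic brain does not name. Numbers 1 to 3 also had signal of genes outside that label. Over 5 measured genes, heart markers summed to 626 units in WT array 1. They summed to 216 to 254 units in the arrays labelled foggy with numbers 1 to 3. The foggy transcript supt5h had 38.6 to 47.0 units in the foggy arrays numbered 4 to 6, against 167 to 231 units in WT, but 245 to 258 units in the arrays labelled foggy with numbers 1 to 3, against 210 units in WT array 1. Lower supt5h thus accompanied the foggy label in numbers 4 to 6 and not in numbers 1 to 3, and the genotype of the arrays numbered 1 to 3 rests on the label alone. Set, material and anything else that differs with the title number cannot be told apart. Array medians lay between 46.7 and 66.4 intensity units, and the highest of 17 tag controls in an array read 10.8 to 34.4 units, which marks the level below which a gene could not be told from background in that array.

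**Figure D1:**
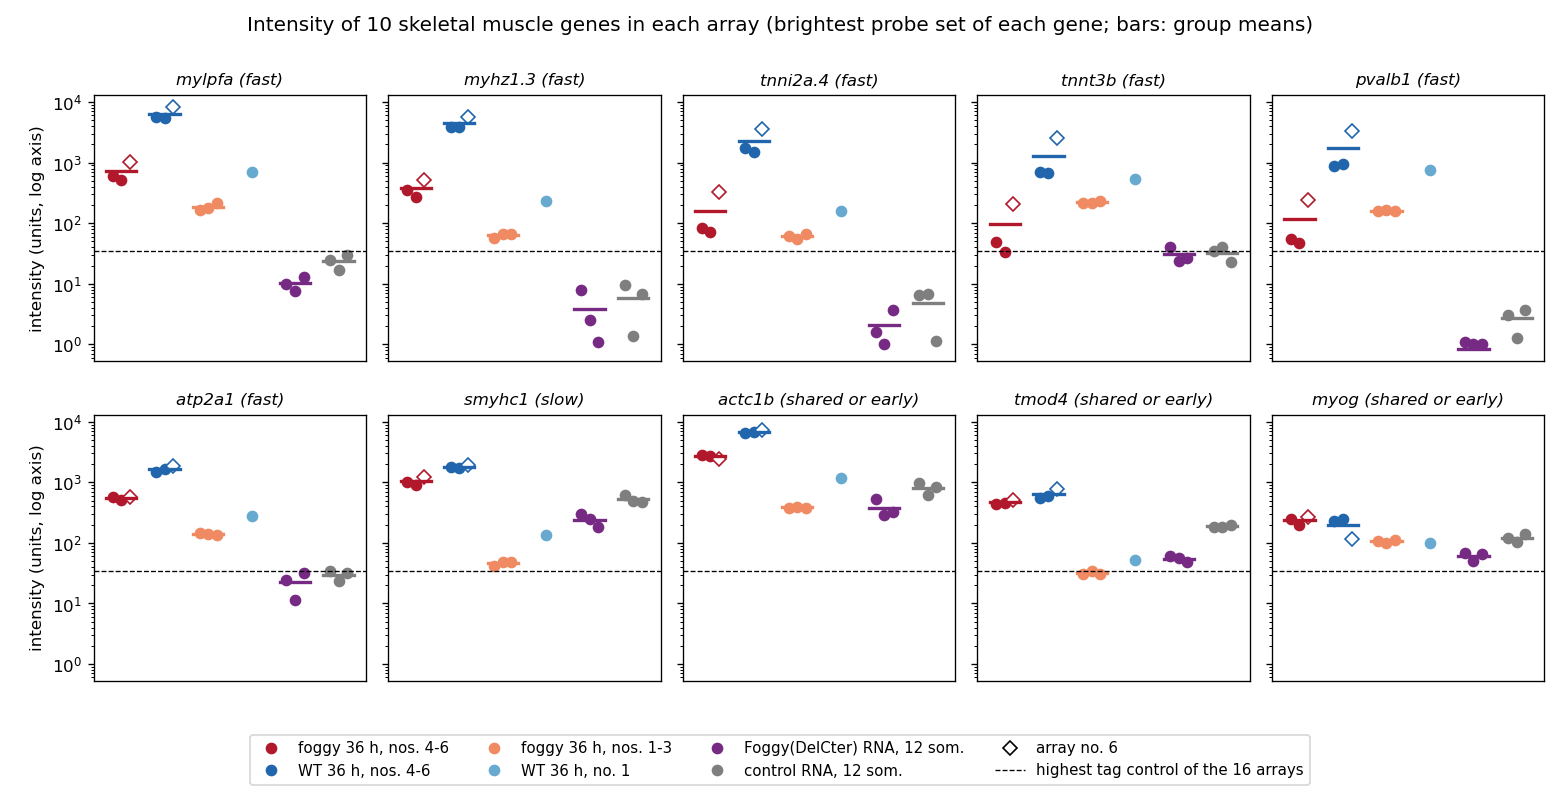
Intensity (vertical log axis) of the brightest probe set of each of the 10 genes in every array, with group means as bars, array number 6 as open diamonds and the highest tag control (34.4 units) as a dashed line; values under 1 unit are drawn at 1. Foggy arrays 4 to 6 lie under WT arrays 4 to 6 for all 6 fast genes, while myog overlaps, and mylpfa, myhz1.3, tnni2a.4 and pvalb1 are under the dashed line at 12 somites.

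Among the 36 h arrays numbered 4 to 6, fast-fibre transcripts were lower in foggy by the widest margin of the 3 classes. Of 18 member probe sets tested with limma, 15 were lower in foggy and 0 were higher at an adjusted p under 0.05, with 10.4% of all 10856 probe sets tested lower and 9.05% higher. All 8 fast probe sets, smyhc1 and 6 of 9 tested shared or early probe sets made up the 15. The median log2 difference was -3.42 over the fast probe sets, -0.77 for smyhc1 and -1.23 over the shared or early ones, against 0.06 over all probe sets tested. Apart from those of tmod4 and myog, the shared or early probe sets all read actc1b. Their median is therefore mainly that of 1 gene and does not rank the class against smyhc1. Foggy and WT arrays did not overlap for 16 of the 19 probe sets, all lower in foggy, where 15.7% of all probe sets were lower and 16.7% higher without overlap. In whole tissue, fewer muscle cells and less RNA per muscle cell cannot be told apart.

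The fast myosin genes came down together. mylpfa encodes a regulatory light chain of fast myosin, and its brighter probe set had 609, 522 and 1012 units in foggy arrays 4, 5 and 6, against 5679.95, 5354 and 8239 units in WT arrays 4, 5 and 6. Its second probe set had 506, 442 and 883 units in foggy, against 4456, 3718 and 5539.99 units in WT. Every foggy array was below every WT array, and the log2 differences were -3.13 ± 0.26 and -2.84 ± 0.23 (SE, n = 3 each, limma adjusted p = 0.000113 for both). A log2 difference here is taken on log2(intensity + 16), which understates the change of dim genes.

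The heavy chain gene myhz1.3, which encodes the motor protein of fast fibres, had 352, 272 and 515 units in foggy, against 3884, 3901 and 5749 units in WT. Its foggy mean was 8.42% of the WT mean, with no overlap and a log2 difference of -3.43 ± 0.24 (limma adjusted p = 4.95e-05). This gene belongs to a cluster of near-identical myosin heavy chain genes, so its signal may include other copies. A further probe set that names 6 genes of that cluster was left out.

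Troponin genes of fast fibres, whose products switch contraction on with calcium, fell as far but with more scatter. The inhibitory subunit gene tnni2a.4 had 83.4, 72.2 and 322 units in foggy, against 1744, 1494 and 3573 units in WT, on its brighter probe set. The other probe set of tnni2a.4 had 38.7, 54.7 and 261 units in foggy, against 1345, 1183 and 2599 units in WT. The tropomyosin-binding subunit gene tnnt3b had 48.9, 33.9 and 204 units in foggy, against 703, 665.00 and 2545 units in WT. In each case array 6 was the highest of its genotype by a wide gap, yet foggy array 6 stayed below all 3 WT arrays. The log2 differences were -3.67 ± 0.45 and -3.77 ± 0.50 for tnni2a.4 (limma adjusted p = 0.000829 and 0.00124) and -3.42 ± 0.56 for tnnt3b (limma adjusted p = 0.00383).

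Calcium handling genes of fast fibres split in size. pvalb1, which encodes a parvalbumin that buffers calcium and speeds relaxation, had 54.2, 47.3 and 244 units in foggy, against 864, 954 and 3372 units in WT. Its log2 difference was -3.55 ± 0.55 (limma adjusted p = 0.00307), and its foggy mean was 6.66% of the WT mean. By contrast, atp2a1, the calcium pump of the fast-fibre sarcoplasmic reticulum, had 570.4, 520.2 and 583 units in foggy, against 1456, 1687 and 1827 units in WT. Its foggy mean was 33.7% of WT, the groups did not overlap, and its log2 difference of -1.48 ± 0.12 (limma adjusted p = 0.000113) was the smallest of the 8 fast probe sets.

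Array number 6 was the highest of 3 for 8 of 8 fast probe sets in foggy and for 8 of 8 in WT. These probe sets read 6 genes, and the share over all probe sets was not counted, so the count does not mark a trait of fast genes. The excess of array 6 over the mean of numbers 4 and 5 differed among the genes. For tnnt3b it was 4.93-fold in foggy and 3.72-fold in WT. For pvalb1 it was 4.82-fold in foggy and 3.71-fold in WT. For atp2a1 it was 1.07-fold in foggy and 1.16-fold in WT, and for smyhc1 1.27-fold in foggy and 1.13-fold in WT. The genes that varied most between arrays of 1 genotype were thus tnni2a.4, tnnt3b and pvalb1 in both genotypes.

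The slow myosin heavy chain gene smyhc1 was lower by less. It had 1024, 908 and 1223 units in foggy, against 1759, 1723 and 1964 units in WT. The arrays did not overlap, the foggy mean was 57.9% of the WT mean, and the log2 difference was -0.77 ± 0.13 (limma adjusted p = 0.00454). Like the fast heavy chains, it has near-identical neighbours in the genome whose RNA this probe set may also read.

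Genes shared by both fibre types gave intermediate or small values. actc1b encodes a sarcomeric actin, and its brightest probe set had 2868, 2713 and 2451 units in foggy, against 6514, 6858 and 7234 units in WT. In all, 6 probe sets of actc1b were lower in foggy without overlap, with log2 differences between -1.15 and -1.43 and limma adjusted p-values between 0.00017 and 0.000558. An actc1b probe set at 37.0 to 52.8 units in foggy and 37.4 to 51.5 units in WT showed a log2 difference of -0.02 ± 0.13 (limma adjusted p = 0.942), and the last was within the tag range in every array and was not tested. The probe sets of actc1b therefore disagree, with the bright ones lower and the dim ones overlapping.

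tmod4, which encodes a tropomodulin that caps the pointed ends of actin filaments, had 435, 461 and 509 units in foggy, against 542, 587 and 781 units in WT. The groups did not overlap, but the log2 difference of -0.41 ± 0.14 did not pass (limma adjusted p = 0.073). The transcription factor gene myog had 244, 200.1 and 265 units in foggy, against 233, 244 and 117 units in WT. WT array 6 was the lowest of the 6, the genotypes overlapped, and the log2 difference was 0.29 ± 0.23 (limma adjusted p = 0.401), or -0.014 without WT array 6.

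**Figure D2:**
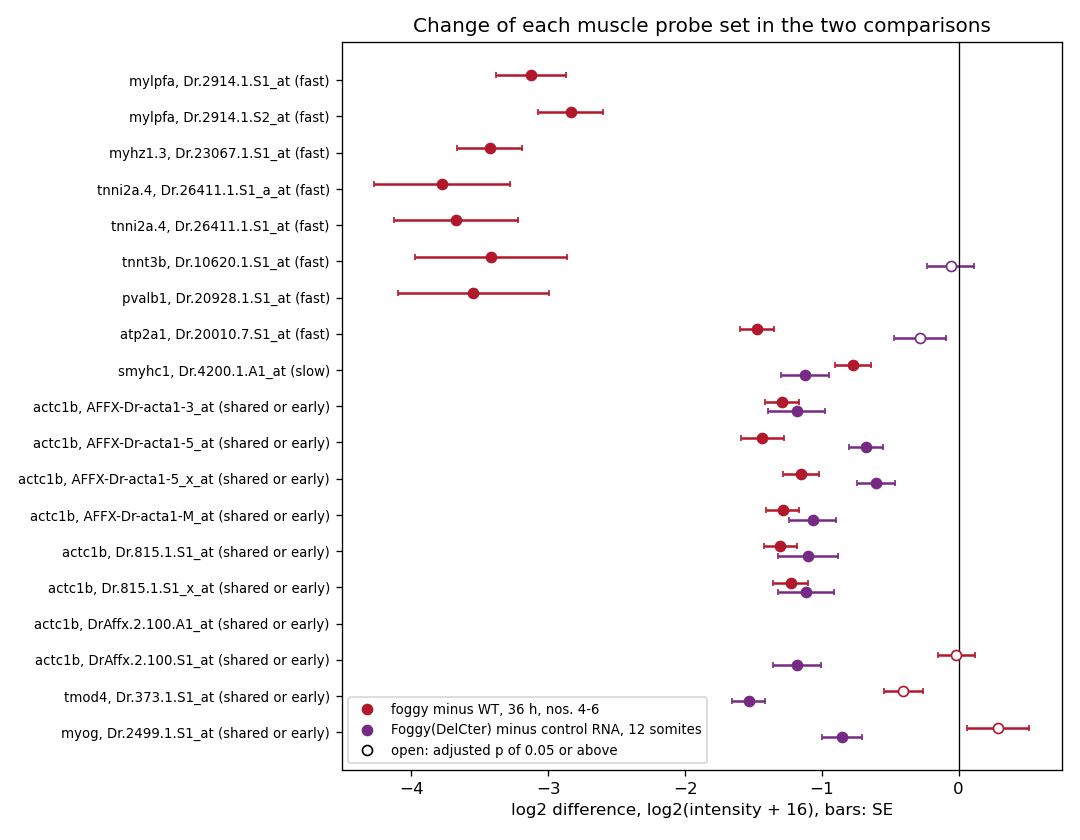
Log2 difference with its standard error for each member probe set, foggy minus WT in 36 h arrays numbered 4 to 6 (red) and Foggy(DelCter) minus control RNA at 12 somites (purple), 3 arrays against 3 in each; open symbols did not pass an adjusted p of 0.05 and untested probe sets have no symbol. At 36 h the fast probe sets other than atp2a1 lie between -2.84 and -3.77 and smyhc1 at -0.77, while at 12 somites smyhc1, actc1b, tmod4 and myog lie to the left of 0.

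The unequal change of fast and slow genes was measured within arrays. The log2 values of a gene were averaged over its probe sets with a mean of at least 100 units over all arrays. This left out the dim actc1b probe sets. The log2 value of smyhc1 in the same array was then subtracted. Foggy minus WT, this difference was -2.21 ± 0.22 for mylpfa (SE, n = 3 each) and -2.66 ± 0.21 for myhz1.3. It was -2.95 ± 0.59 for tnni2a.4, -2.65 ± 0.73 for tnnt3b and -2.77 ± 0.73 for pvalb1. For atp2a1 it was -0.70 ± 0.12 and for actc1b -0.51 ± 0.17, while tmod4 gave 0.37 ± 0.13 and myog 1.06 ± 0.36. The difference was thus negative for the fast genes and the bright actc1b probe sets and positive for tmod4 and myog. Genotypes did not overlap for any of the 9 genes, but the share over all probe sets was not counted. smyhc1 was itself lower in foggy without overlap (log2 difference -0.77), so an unchanged gene would tend to give a positive difference. The positive values of tmod4 and myog therefore do not show a rise of these genes. Each of the 9 genes gave p = 0.1 in the exact 2-sided permutation test, the smallest that 3 against 3 arrays allow. After Benjamini-Hochberg adjustment over the 12 such comparisons made, each gave 0.133, so none could pass 0.05.

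Other genes of skeletal muscle were read on the brightest probe set of each gene in a wider list of 6 groups. In the 36 h arrays numbered 4 to 6, 35 of 67 tested genes outside the 10 members were lower in foggy and 7 were higher. Of all probe sets tested, 10.4% were lower and 9.05% higher, so the count of higher genes was near the share over all probe sets. Fast sarcomere genes had 9 of 12 lower and 0 higher, with a median log2 difference of -1.30. Slow sarcomere genes had 1 of 4 lower, with a median of -0.24, and shared sarcomere genes had 9 of 16 lower and 3 higher, with a median of -0.49. Energy genes had 7 of 9 lower, with a median of -0.98. The 7 included mb, which was within the tag range in foggy and entered the fit through its WT level, so its call is no test of direction. Genes of calcium release, receptors and membrane had 4 of 9 lower and 1 higher, with a median of -0.35. Myogenic regulators and fusion genes had 5 of 17 lower and 3 higher, with a median of -0.03. The median over all probe sets tested was 0.06.

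Among these fast genes, the essential light chain gene myl1 averaged 603 ± 74 units in foggy and 2968 ± 637 units in WT (SD, n = 3 each), and so differed by -2.16 ± 0.15 on the log2 scale (SE, limma adjusted p = 5.1e-05). The troponin T gene tnnt3a averaged 352 ± 205 units in foggy and 2029 ± 1016 units in WT, and the light chain gene mylz3 782 ± 328 units in foggy and 2889 ± 749 units in WT. The tropomyosin gene tpma was lower by -1.25 ± 0.23 on the log2 scale (limma adjusted p = 0.00728). In the slow group only prox1a, a transcription factor gene, passed, at 19.7 ± 4.6 units in foggy, which is within the tag range, and 38.7 ± 3.4 units in WT.

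Of the shared sarcomere genes, the intermediate filament gene desma averaged 867 ± 141 units in foggy and 1559 ± 146 units in WT, and the actin gene acta1a 2115 ± 152 units in foggy and 3318 ± 291 units in WT. nexn, whose product binds actin filaments, was lower by -0.76 ± 0.15 (limma adjusted p = 0.00793), whereas the tropomyosin gene tpm1 was higher, at 60.04 ± 6.85 units in foggy and 31.4 ± 4.2 units in WT. Creatine kinase genes, which regenerate ATP in muscle, were lower by -1.66 ± 0.18 for ckma and -1.23 ± 0.20 for ckmb (limma adjusted p = 0.000445 and 0.00376). The glycogen phosphorylase gene pygmb averaged 98.5 ± 8.9 units in foggy and 196 ± 38 units in WT, and the myoglobin gene mb was within the tag range in foggy, at 8.63 ± 6.24 units, and at 43.4 ± 2.7 units in WT.

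Reticulum and membrane genes included srl, lower by -1.25 ± 0.13, and the calcium channel subunit gene cacng1a, lower by -0.91 ± 0.12 (limma adjusted p = 0.000394 and 0.00139). The caveolin gene cav3 was lower by -1.05 ± 0.24 and the acetylcholine receptor subunit gene chrne by -0.51 ± 0.14 (limma adjusted p = 0.0162 and 0.034). Calls among the 17 regulators and fusion genes tested went in both directions. The co-receptor genes boc and cdon, whose products act in Hedgehog reception and myoblast contact, were lower by -1.02 ± 0.14 and -0.90 ± 0.13, and eya1 by -0.59 ± 0.13, while the homeobox gene six4b was higher by 0.94 ± 0.16 (limma adjusted p between 0.00173 and 0.0132 over the 4 genes).

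**Figure D3:**
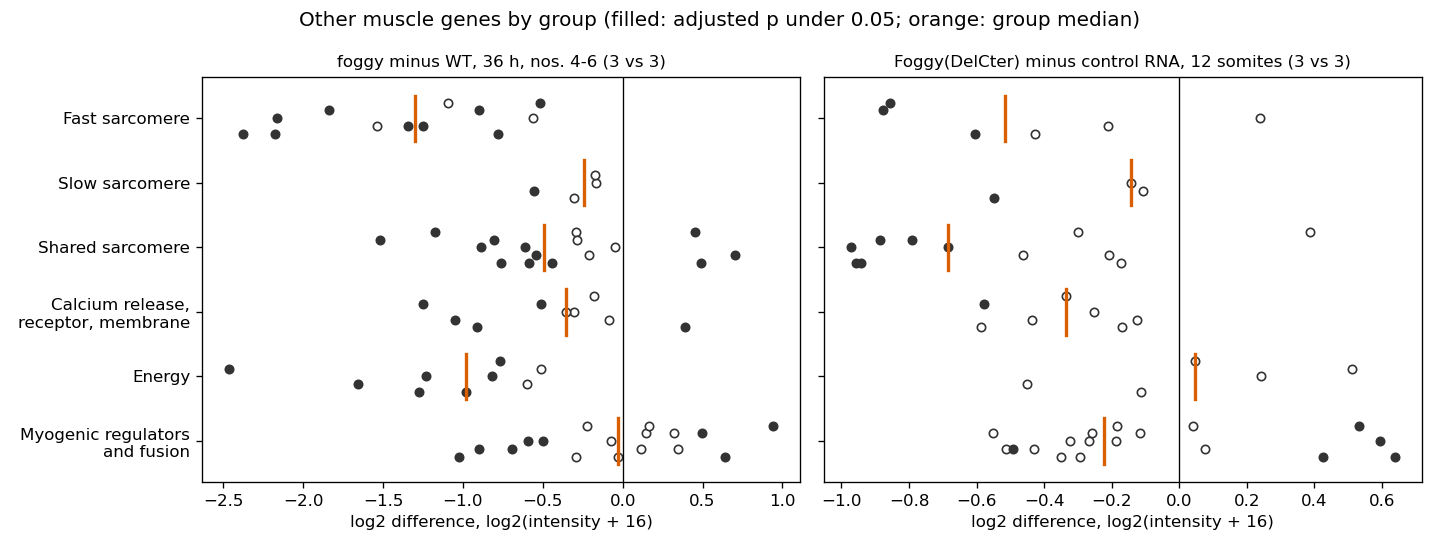
Log2 differences of muscle genes other than the 10 members, by group, for foggy minus WT in 36 h arrays numbered 4 to 6 (left) and Foggy(DelCter) minus control RNA at 12 somites (right), 3 arrays against 3 in each; filled points passed an adjusted p of 0.05 and orange bars are medians. On the left the fast group has the lowest median (-1.30) and the regulators lie on both sides of 0 (-0.03).

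Markers of other tissues also differed between foggy and WT in numbers 4 to 6, where 10.4% of all probe sets tested were lower and 9.05% higher. Heart genes had 3 of 3 tested lower, with a summed level of 101 to 129.7 units in foggy and 869 to 952 units in WT over 5 listed genes, and the cardiac light chain gene myl7 had 37.0 to 45.9 units in foggy, against 442 to 485 units in WT. Blood genes had 8 of 9 lower, at 4771 to 7389 units in foggy and 13033 to 18224 units in WT. Brain and neuron genes had 13 of 14 lower, notochord and cartilage genes 4 of 6 lower, and trunk Hox genes 9 of 15 higher. Epidermis genes had 1 of 8 lower and 1 higher, and yolk layer and liver genes had 0 of 7 called. The lower signal in foggy was thus shared with heart, blood and brain genes and not with Hox or yolk genes. The part of the makeup of the samples in the muscle differences was not tested.

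**Figure D4:**
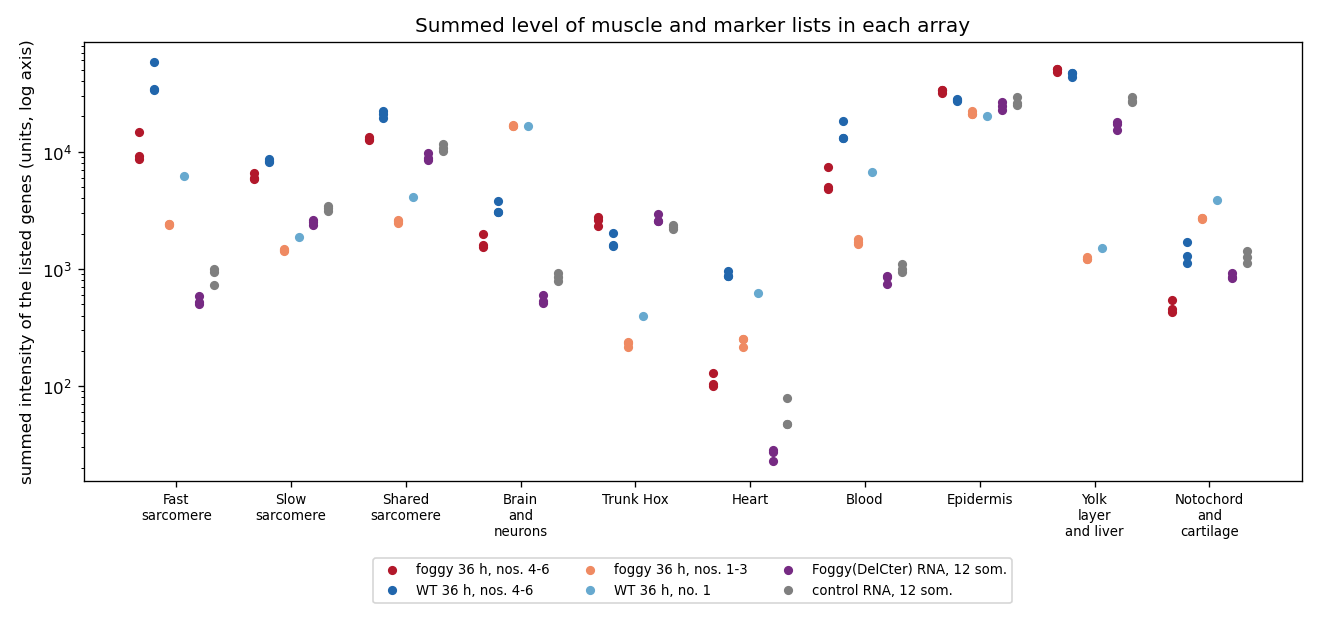
Summed intensity (vertical log axis) of muscle and marker gene lists in each array, coloured by group. Heart genes sum to 101 to 129.7 units in foggy arrays 4 to 6 and 869 to 952 units in WT arrays 4 to 6, and yolk genes separate numbers 4 to 6 from numbers 1 to 3.

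In the arrays numbered 1 to 3, the fast genes were again lower in the arrays labelled foggy than in WT array 1. mylpfa had 168, 179 and 214 units in the arrays labelled foggy, against 693 units in WT array 1, on its brighter probe set. myhz1.3 had 57.2, 66.9 and 65.6 units in the arrays labelled foggy, against 229 units in WT array 1. pvalb1 had 157, 164 and 159 units in the arrays labelled foggy, against 744 units in WT array 1. All 3 genes were lowest in the arrays labelled foggy, with means at 26.9%, 27.6% and 21.5% of the single WT array. The other fast genes kept larger shares, at 38.6% for both tnni2a.4 probe sets, 41.9% for tnnt3b and 51.2% for atp2a1. The slow gene smyhc1 stood at 33.6%, so in this set the fast genes did not all fall further than the slow gene.

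The calcium pump gene atp2a1 had 146, 141 and 136 units in the arrays labelled foggy, against 275 units in WT array 1. smyhc1 had 40.9, 47.6 and 48.9 units in the arrays labelled foggy, against 136 units in WT array 1, and tmod4 had 30.5 to 34.7 units, against 52.2 units. The smyhc1 values labelled foggy and the tmod4 values lie near the tag controls. Of the 19 probe sets, 16 were lower in all 3 arrays labelled foggy than in WT array 1 and 2 were higher (myog and the actc1b probe set within the tag range), where 27.6% of all probe sets were lower and 32.8% higher. One WT array gives no spread of its own, so this count has no replicate check.

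The foggy effect in numbers 4 to 6 was set against that in numbers 1 to 3 in a fit that assumes that the single WT array varies like the others. Of 17 member probe sets tested, 2 had a more negative effect in numbers 4 to 6 and 0 a less negative one, with 2.42% and 0.903% of all probe sets called in those directions and 3.33% in either. They were myhz1.3 (difference of log2 effects -1.61 ± 0.38, limma adjusted p = 0.0438) and the 5′ actin control probe set of actc1b (-1.22 ± 0.25, limma adjusted p = 0.0239). The brightest actc1b probe set leaned the other way, at 0.37 ± 0.18, and did not pass (limma adjusted p = 0.272), so the probe sets of this gene disagree. Beside this, the log2 ratio of the 3′ to the 5′ actin control was 1.65 to 1.96 in the arrays labelled foggy of numbers 1 to 3 and 3.31 in WT array 1. That ratio is made of actc1b probe sets, so it is no separate sign of RNA quality. The 3′ to 5′ log2 ratio of the GAPDH control was 0.827 to 0.952 in those arrays labelled foggy and 0.835 in WT array 1. The part of RNA quality in the result was not tested. Both calls ended when single arrays were left out. That of myhz1.3 was lost without foggy 1, 2, 3, 4 or 5 or WT 4, and that of actc1b without foggy 1, 3 or 4. smyhc1 leaned the other way, at 0.68 ± 0.20, and did not pass (limma adjusted p = 0.0931).

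Over all 10 arrays at 36 h, few members passed. Of 17 tested, 1 (pvalb1) was lower in foggy (log2 difference -3.09 ± 0.47, n = 6 and 4, limma adjusted p = 0.0345) and 0 were higher, with 0.184% of all probe sets lower and 0.0368% higher. That call was lost with any of 8 single arrays left out (limma adjusted p up to 0.136) and held without WT 1 or foggy 6. pvalb1 had 47.3 units at its lowest, 158 at the median and 244 at its highest in foggy, against 744, 864, 954 and 3372 units in WT, and it and tnnt3b were the 2 probe sets whose 6 foggy arrays all lay below the 4 WT arrays, where 1.28% of all probe sets did so. With the set as a block, 16 of 17 members were lower and 0 higher, with 7.11% of all probe sets lower and 6.02% higher. That fit gave -0.9997 ± 0.1329 for smyhc1, -2.89 ± 0.27 for myhz1.3 and -0.44 ± 0.11 for tmod4 (limma adjusted p = 0.0192), and myog was the exception at 0.22 ± 0.17 (limma adjusted p = 0.391). The tmod4 call was lost without foggy array 4 (adjusted p = 0.0558). With the title number as a replicate block over numbers 1, 4, 5 and 6, the same count of 16 members was lower.

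Set against foggy arrays 4 to 6, the arrays labelled foggy with numbers 1 to 3 had little smyhc1 signal and more tnnt3b. Of 17 members tested, 14 were lower in numbers 1 to 3 and 1 was higher, with 36.9% of all probe sets lower, 33.6% higher and 70.6% called in either direction. smyhc1 differed most, by -4.24 ± 0.12, followed by tmod4 at -3.53 ± 0.13 (limma adjusted p = 1.01e-10 and 7.68e-10). tnnt3b went the other way, with 218, 219 and 236 units in numbers 1 to 3, against 48.9, 33.9 and 204 units in numbers 4 to 6, a log2 difference of 1.29 ± 0.51 (limma adjusted p = 0.0398). That call rested on every array but foggy 6, since leaving out any of foggy 1 to 5 raised its adjusted p to between 0.0724 and 0.162. pvalb1 overlapped between the sets, at 0.57 ± 0.51 (limma adjusted p = 0.331), and passed without foggy array 6, at 1.16 (limma adjusted p = 0.0318).

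At 12 somites most fast members were near or within the tag range, and the slow and early members were brighter. myhz1.3, pvalb1 and both tnni2a.4 probe sets lay within the tag range in all 6 arrays, at 9.59 units or less. In the Foggy(DelCter) arrays, mylpfa had 9.93, 7.48 and 12.9 units, against 24.5, 17.1 and 30.1 units in control arrays, on its brighter probe set. tnnt3b had 40.5, 24.1 and 27.1 units in Foggy(DelCter) arrays, against 34.96, 39.8 and 22.9 units in control arrays. Only tnnt3b and atp2a1 of the fast genes passed the filter on dim probe sets, and neither passed the test, with log2 differences of -0.06 ± 0.17 and -0.28 ± 0.19 (limma adjusted p = 0.863 and 0.387). mylpfa, myhz1.3, tnni2a.4 and pvalb1 did not pass the filter and were not tested. The brighter mylpfa probe set was lower in every Foggy(DelCter) array than in any control array, near or within the tag range, while its second probe set overlapped. For myhz1.3, tnni2a.4 and pvalb1, signal within the tag range cannot show whether the injected RNA had an effect.

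Of 12 member probe sets tested at 12 somites, 10 were lower with Foggy(DelCter) RNA and 0 were higher, with 7.58% of all probe sets lower and 3.74% higher. Every slow, shared or early gene was among the 10. Those 12 had passed a filter on the mean of both groups, and 12 passed on the Foggy(DelCter) arrays alone. The median log2 difference over the 12 was -1.08, against -0.02 over all probe sets tested. Most of the 12, and of the 10 called, read actc1b, so the count and the median are weighted to that gene. Without overlap, 12 of 19 member probe sets were lower and 1 was higher, where 14.7% and 10.8% of all probe sets were, and the 1 was an actc1b probe set within the tag range. The 12 lower ones included pvalb1, also within the tag range in every array, and the brighter mylpfa probe set, near or within it.

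smyhc1 had 295, 244 and 181 units in Foggy(DelCter) arrays, against 629, 497 and 482 units in control arrays. The groups did not overlap, and the log2 difference was -1.12 ± 0.17 (limma adjusted p = 0.00234). actc1b had 522, 287 and 324 units in Foggy(DelCter) arrays, against 992, 624 and 829.7 units in control arrays, on its brightest probe set. Its 7 tested probe sets were lower by between -0.61 and -1.19 on the log2 scale, including the dim one that did not pass at 36 h (29.1 ± 10.9 units with Foggy(DelCter) RNA and 84.7 ± 9.8 units with control RNA, SD, n = 3 each). The call of the smallest of these changes, -0.61 ± 0.14 (limma adjusted p = 0.0176), was lost without control array 1 or 3 or Foggy(DelCter) array 2 or 3 (adjusted p up to 0.0747).

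The largest change at this stage among the members was in tmod4. It had 59.7, 55.8 and 47.8 units in Foggy(DelCter) arrays, against 185, 182 and 195 units in control arrays, a log2 difference of -1.54 ± 0.12 (limma adjusted p = 2.75e-05). myog had 68.2, 49.4 and 64.7 units in Foggy(DelCter) arrays, against 119.7, 105 and 143 units in control arrays. Its arrays did not overlap either, and the log2 difference was -0.85 ± 0.15 (limma adjusted p = 0.00447). Relative to smyhc1 in the same array, actc1b (bright probe sets only) differed by 0.17 ± 0.15, tmod4 by -0.41 ± 0.18 and myog by 0.27 ± 0.28, with overlapping groups (exact 2-sided permutation p = 0.4, 0.2 and 0.4).

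The wider list gave fewer calls at 12 somites, with 12 of 50 tested genes lower and 4 higher. Of all probe sets tested there, 7.58% were lower and 3.74% higher. Shared sarcomere genes had 6 of 11 lower, with a median log2 difference of -0.69, and fast sarcomere genes 3 of 6 lower, with a median of -0.52. acta1a averaged 769 ± 101 units with Foggy(DelCter) RNA and 1488 ± 136 units with control RNA, and desma 64.5 ± 13.7 units with Foggy(DelCter) RNA and 143 ± 33 units with control RNA. flncb, which encodes a filamin, and nexn were lower by -0.89 ± 0.16 and -0.69 ± 0.13 (limma adjusted p = 0.005 and 0.0067). Of the fast group, the troponin genes tnnc2.2 and tnni2b.1 were lower by -0.88 ± 0.14 and -0.86 ± 0.21, and tpma by -0.61 ± 0.12. These fast troponin genes were well above the tag range, at 125 ± 16 and 129.8 ± 19.9 units with Foggy(DelCter) RNA and 243 ± 30 and 257 ± 88 units with control RNA.

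Of the slow group, the myosin light chain gene myl10 averaged 709 ± 99.7 units with Foggy(DelCter) RNA and 1037 ± 46 units with control RNA. Among 7 calcium release, receptor and membrane genes, dag1, which encodes dystroglycan, was lower by -0.58 ± 0.13 (limma adjusted p = 0.0191), and none of 5 energy genes passed. Myogenic regulators had 1 of 18 lower, the transcription factor gene mef2d (-0.49 ± 0.13), and 4 higher. The count of lower regulators was near the share over all probe sets. The higher regulators included myf5, a myogenic determination gene, at 223 ± 43 units with Foggy(DelCter) RNA and 137 ± 24 units with control RNA. six4b was higher by 0.53 ± 0.11 and tbx16, a T-box gene of presomitic mesoderm, by 0.43 ± 0.12 (limma adjusted p = 0.0128 and 0.0412). The differentiation factor gene myog and the determination gene myf5 thus moved in opposite directions.

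Of the marker lists at this stage, brain and neuron genes had 3 of 7 lower, blood genes 3 of 6, notochord and cartilage genes 2 of 5 and yolk layer and liver genes 5 of 7, and trunk Hox genes had 2 of 15 higher. Of all probe sets tested, 7.58% were lower and 3.74% higher. The yolk genes summed to 15368 to 17944 units with Foggy(DelCter) RNA and 26659 to 29121 units with control RNA. supt5h had 428 ± 44 units with Foggy(DelCter) RNA and 409 ± 24 units with control RNA and did not pass (limma adjusted p = 0.802), and the sources used here do not say whether its probe set reads the injected RNA. The part of the makeup or the developmental stage of the samples in the muscle differences was not tested.

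The foggy effect at 36 h (numbers 4 to 6) was set against the Foggy(DelCter) effect at 12 somites in 1 fit over 12 arrays, as the comparisons share no array. Of 18 members tested, 9 had a more negative effect at 36 h and 3 a less negative one, with 4.91% and 5.72% of all probe sets called in those directions. The 9 were the 8 fast probe sets and the 5′ actin control probe set. Apart from tnnt3b and atp2a1, the fast probe sets were too dim for the filter at 12 somites and entered this fit through their 36 h level. Their signal at 12 somites left little room for an effect, so their calls largely restate the 36 h effect. They cannot show what happened at the earlier stage. The 3 were tmod4 (1.12 ± 0.19, limma adjusted p = 0.00162), myog (1.14 ± 0.30, limma adjusted p = 0.0222) and the dim actc1b probe set (1.11 ± 0.24, limma adjusted p = 0.00836). The myog call was lost without control array 3 or Foggy(DelCter) array 2 (adjusted p = 0.0596 and 0.0609). For smyhc1 the effects differed by 0.34 ± 0.23 and did not pass (limma adjusted p = 0.403).

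Set against the 12-somite control arrays, WT arrays 4 to 6 at 36 h had far more fast muscle RNA, and stage, material, injection and array batch cannot be told apart in this comparison. These WT arrays also serve in the foggy comparison above. Of 18 members tested, 16 were higher at 36 h and 1, the dim actc1b probe set, was lower, with 24.7% of all probe sets higher and 32.4% lower. Among the 16, myhz1.3, pvalb1 and both tnni2a.4 probe sets lay within the tag range in every control array. The second mylpfa probe set did so in all but 1. These probe sets entered the fit through their 36 h level and had no room to be called lower, so the count is no test of direction for them. Against the highest tag control of each 12-somite array, or the gene's own value where that was higher, myhz1.3 was at least 267-fold higher in WT at 36 h, the tnni2a.4 probe sets at least 127-fold and 96.7-fold, and pvalb1 at least 84.7-fold (limma adjusted p between 1.37e-09 and 6.03e-07). mylpfa was at least 271-fold higher on its brighter probe set, where the control arrays, at 17.1 to 30.1 units, were little above their own highest tag controls of 10.8 to 23.9 units.

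Ratios were smaller for the other genes. atp2a1 and tnnt3b, at 22.9 to 39.8 units in the controls and so also close to the tag controls, were 55.8-fold and 33.4-fold higher in WT at 36 h. The genes bright at 12 somites gave the smallest ratios, with actc1b 8.57-fold higher on its brightest probe set, smyhc1 3.41-fold and tmod4 3.35-fold. myog had 233, 244 and 117 units in WT at 36 h, against 119.7, 105 and 143 units in 12-somite controls. These groups overlapped through WT array 6, and the log2 difference of 0.57 ± 0.23 did not pass (limma adjusted p = 0.0533), but did without WT array 6 (0.89, limma adjusted p = 0.000814) and with quantile normalization (adjusted p = 0.0472).

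Across the 16 arrays, the probe sets most like the brighter one of mylpfa in log2 level were those of myl1 (Pearson r = 0.989), tnnt3a (0.988), mylz3 (0.987), ckma (0.984) and ldb3b (0.983). Those most like smyhc1 were myl10 (0.986), acta1a (0.983), mybphb (0.976), shmt2 (0.971) and vaspb (0.970). Among the members, smyhc1 followed tmod4 (0.960) more closely than mylpfa (0.524) or tnnt3b (0.191). The genes nearest to myog, mtpn (0.928), epb41l3b (0.925), rpl31 (0.923), snd1 (0.921) and nt5c3a (0.919), were not on the muscle lists. These coefficients describe 16 arrays that share stage and set, and most of their spread is between groups.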

How the data were processed

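The authors deposited 1 intensity per probe set and array, on a linear scale. In every array the values share a 2% trimmed mean, and the summarising software was not given in the sources used here. Of 15617 deposited probe sets, 108 controls without a gene symbol were left out. Symbols came from the platform annotation, updated through RefSeq GRCz12tu. Values were taken as log2(intensity + 16). Quantile normalization was used where log2 medians differed by over 0.2 (the 10 arrays at 36 h, 0.371) and not otherwise (12 somites, 0.104). Probe sets under the 30th percentile of the mean were left out, which left 10856 per fit. The tests were 2-sided moderated ones of limma (version 3.58.1, lmFit then eBayes, R version 4.3.3), with Benjamini-Hochberg adjustment over all probe sets tested and calls at an adjusted p under 0.05. The fits were tested on simulated data. No 2 arrays held identical values. The number of arrays limits the precision. The members, lists and tests were chosen with earlier results of these data known. Named genes outside the members were the 4 called genes with the smallest p per list group and comparison, the brightest markers and the 5 closest by correlation. For same-numbered arrays, deviations from the group means had r of 0.237, 0.230 and 0.181 at 12 somites and of 0.0617, 0.278 and 0.356 within numbers 4 to 6. Over numbers 1, 4, 5 and 6 at 36 h they had r of 0.875, 0.761, 0.766 and 0.622. These last coefficients include the difference between the sets of numbers, so they cannot show pairing. The main fits leave pairing by title number out, and fits with that number as a replicate block are given as alternatives.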

Additional observations from a re-analysis of the deposited data

Results flagged for a closer look

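Of 38 groups of arrays examined for an array far from the others, 7 held one. Chance gives about 1 in 20 only where each group is uniform and the groups are independent. The 36 h groups named here pooled both sets of title numbers, and some probe sets read the same gene. The count of 7 therefore cannot be set against chance. In foggy at 36 h, array 6 stood apart for both tnni2a.4 probe sets, at 261 and 322 units, with the next array at 64.4 and 83.4 units. In WT at 36 h, array 6 stood apart for tnnt3b (2545 units, next 703) and pvalb1 (3372 units, next 954). WT array 1 stood apart for smyhc1 (136 units, next 1723) and for the actc1b probe sets at 646 units (next 4277) and 1163 units (next 6514). It was the only WT array of its set, so an unusual array and the difference between the sets cannot be told apart there.

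The foggy effect differed between numbers 4 to 6 and numbers 1 to 3 by -1.61 on the log2 scale for myhz1.3 and by -1.22 for the 5′ actin control probe set of actc1b (limma adjusted p = 0.0438 and 0.0239).

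The foggy effect at 36 h (numbers 4 to 6) was also called different from the Foggy(DelCter) effect at 12 somites for 12 probe sets. At 12 somites myhz1.3, pvalb1 and both tnni2a.4 probe sets lay within the tag range, and mylpfa near or within it. For these genes the calls largely restate the 36 h effect and cannot show that the effects differ. tnnt3b and atp2a1 were close to the tag controls at 12 somites, so their calls share this limit. On the log2 scale the difference was -2.57 and -2.61 for the mylpfa probe sets, -3.39 for myhz1.3, -3.98 and -3.69 for tnni2a.4, -3.53 for tnnt3b, -3.61 for pvalb1, -1.26 for atp2a1 and -0.82 for the 5′ actin control probe set. It was 1.11 for the dim actc1b probe set, 1.12 for tmod4 and 1.14 for myog (limma adjusted p between 6.01e-06 and 0.0222 over the 12).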

How the results depend on the processing

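No called value changed direction under the alternatives run. Uncalled values did: myog, in numbers 4 to 6 (-0.086 with numbers 4 and 5 alone, -0.014 to 0.45 without 1 array) and over all 10 arrays (0.24 with the replicate block and 0.088 in numbers 1 to 3 alone, against -0.053, and -0.30 to 0.14 without 1 array), and for the effect of numbers 4 to 6 minus 1 to 3 (-0.10 to 0.37 without 1 array); tnnt3b at 12 somites (0.014 with quantile normalization, -0.21 to 0.049 without 1 array); and 4 actc1b probe sets, namely the dim one in numbers 4 to 6 (0.067 with numbers 4 and 5 alone, -0.12 to 0.056), the middle control between sets (-0.10 with values as deposited, -0.017 to 0.14 without 1 array), and the 3′ control and a second probe set between stages (-0.33 to 0.064 and -0.33 to 0.062 without 1 array). In numbers 4 to 6, the count of members lower in foggy stayed between 15 and 16, while all probe sets higher came to 613 without the filter, against 982. Without 1 array there were 727 to 940 lower and 440 to 682 higher. tmod4 passed with a pseudocount of 64, with a trend and robust prior, in a contrast over 10 arrays, and with the replicate block (adjusted p = 0.0432, 0.0387, 0.036 and 0.0301). Within numbers 4 to 6, same-numbered arrays had r of 0.0617, 0.278 and 0.356. Each foggy array correlated best with the WT array of its number, for foggy 4 by a small margin (0.0541 with WT 5). From the WT side, WT 4 correlated best with foggy 5 (0.186), and WT 5 and WT 6 with the foggy array of their number. The main fit leaves pairing by title number out, and the replicate block gave 1384 lower and 1348 higher. At 12 somites the replicate block gave 1038 lower and 573 higher and changed no member call.

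Over all 10 arrays, 20 probe sets were lower and 4 higher, against 5 and 1 with values as deposited, 10 and 2 with a filter at the 60th percentile, 643 and 395 with the replicate block, and 77 lower in numbers 1 to 3 alone, an alternative added after seeing the data, as was numbers 4 and 5 alone. Members lower were 0 with values as deposited, 16 with the replicate block and 9 in numbers 1 to 3 alone, against 1, where the single WT array gives no spread of its own and is assumed to vary like the foggy arrays. Without 1 array, 1 to 186 were lower, 0 to 83 higher, and 0 to 6 members lower. With the set block those ranges were 437 to 1418 lower, 250 to 1451 higher and 15 to 16 members. At 12 somites they were 401 to 633 lower, 199 to 296 higher and 9 to 10 members, and without the filter 526 lower and 228 higher, against 823 and 406. For the effect of numbers 4 to 6 minus numbers 1 to 3 they were 123 to 307 lower, 44 to 131 higher and 0 to 6 members. For foggy numbers 1 to 3 against 4 to 6, 13 to 15 members were lower and 0 to 2 higher (0 without foggy 1, 2, 3, 4 or 5, and 2 without foggy 6), and tnni2a.4 on its brighter probe set lost its call with values as deposited (adjusted p = 0.0858) or without foggy 1, 2 or 6. For tmod4 minus smyhc1 at 12 somites, a pseudocount of 64 gave -0.098. The cause of these moves was not tested. Signal near the tag controls limits the fast genes at 12 somites, and 3 arrays a group limit the rest.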
